A study of Mus musculus with 34 samples.

Results

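NF-κB is a family of dimeric transcription factors that are held in the cytoplasm by IκB proteins and released when cytokine or pattern-recognition receptors activate the IκB kinases. Among the genes it switches on are its own inhibitors and subunits, which form a feedback loop, and genes of the acute phase, the set of secreted defence proteins that inflammation induces in liver and in other cell types. Such genes are widely used to read the state of the pathway in cultured cells. The group described here was set by name. It holds the IκBα gene Nfkbia and the ubiquitin editor gene Tnfaip3 (A20), the subunit genes Nfkb1, Nfkb2 and Relb, the complement component C3, the acute phase genes Lcn2 and Saa3, the cytokine gene Il6 and the adhesion molecule gene Icam1. Of these 10 genes, 9 have a row among the 16576 genes of the culture table. Icam1 has no row there, so its expression was not analysed. The rule names the genes and holds no threshold on a measured value, but they were picked with earlier results of these data known.

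The cells were MOSJ-Dkk1, a murine osteochondral sarcoma line labelled with RFP that carries a pLenti vector with human Dkk-1 under the cytomegalovirus promoter, and every culture shared this background. DkkMo is a vivo morpholino, an antisense oligomer made to enter cells, directed against human Dkk-1, and scrMo is its control with mismatches. The 18 cultures formed 6 groups of 3. Log-phase NT cultures received no morpholino, and the log-phase scrMo and DkkMo cultures received it at 5 µM as the labels and methods give it, while a legend of the study gives a higher dose for log phase. All had grown for 6 days with new medium every 2 days. Stress NT, scrMo and DkkMo cultures were seeded alike and then kept confluent for 48 h, with no medium change for 4 days, so that cell density and nutrient supply cannot be told apart. The methods also speak of a week of treatment, which leaves the exact exposure unsettled. Whether the 3 cultures of a group were separate experiments is not stated, and p-values measure the spread between these samples only. There was 1 cell line, and in bulk RNA fewer cells of a type and less RNA per cell cannot be told apart.

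The libraries held from 25.9 M to 44.8 M counted reads. Mouse Dkk1 has no row in the table and human Dkk-1 was not counted, so the target of DkkMo could not be checked. Mitochondrial genes took 5.30% to 5.80% of the reads in the 3 stress scrMo libraries and 1.54% to 2.68% in the other 15 libraries. Log-phase scrMo and DkkMo libraries numbered 1 stood apart from the other two of their groups, with mean chi-square values per gene between 24.6 and 35.2 against 9.68 and 15.0 between the remaining pairs. The log-phase NT library numbered 1 did so at a lower level, with 13.2 and 14.4 against 4.20. Of the osteoblast and osteosarcoma markers, 6 of 8 had a row and their summed level ranged from 56739 to 236001 normalized counts over the libraries. Most of this sum was Spp1, which alone ranged from 49536 to 215740, while Alpl stayed at or below 24.6 and Bglap at or below 44.2. Sp7 and Ibsp had no row. Of the leukocyte and macrophage markers, 6 of 12 had a row, with Ptprc at 1.04 to 20.4 normalized counts and sums from 2085 to 2299 in log-phase NT and from 3165 to 3460 in stress NT. With DkkMo these sums were 2298 to 2742 in log phase and 3201 to 3351 under stress. With scrMo the conditions overlapped, with 2476 to 3101 in log phase and 3025 to 3149 under stress. Summed markers of endothelial cells (2 of 6 with a row) ranged from 277 to 435 normalized counts, of hepatocytes (4 of 4) from 319 to 840, of chondrocytes (3 of 4) from 4632 to 9323 and of fibroblasts (3 of 4) from 2995 to 14155. Most of the chondrocyte sum was Sox9, which alone ranged from 4549 to 9302, while Col2a1 stayed at or below 26.9. Fibroblast sums were 11570 to 14155 in log-phase NT and 3425 to 3770 in stress NT. The part of these markers in the results was not tested.

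The promoters show what the feedback genes and the acute phase genes carry upstream. RefSeq promoters (GRCm38.p6), each from 250 bases before to 50 after the transcription start, were at hand for 8 of the 10 genes and not for Nfkb1 or Relb. They were searched on both strands for the 10-letter κB consensus and for the shorter form GGANNTTCC, which overlaps it. Of all 32851 promoters of this length, 4.51% held the first, 4.26% the second and 7.76% at least 1 of them. Promoters of 5 of the 8 genes held at least 1 such match. The 8 genes have 11 promoters between them, while the shares count single promoters. A further Tnfaip3 promoter (chr10:19011914-19012213) held 0 matches. The 2 feedback inhibitors are printed with the matches in capitals, Nfkbia from chr12:55492598-55492897 and Tnfaip3 from chr10:19015361-19015660, both on the minus strand.
Nfkbia: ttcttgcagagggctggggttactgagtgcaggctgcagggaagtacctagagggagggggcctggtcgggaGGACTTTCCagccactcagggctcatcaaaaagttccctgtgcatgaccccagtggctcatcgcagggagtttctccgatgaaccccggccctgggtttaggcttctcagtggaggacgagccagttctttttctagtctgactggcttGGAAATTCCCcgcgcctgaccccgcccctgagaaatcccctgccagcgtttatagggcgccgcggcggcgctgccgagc
Tnfaip3: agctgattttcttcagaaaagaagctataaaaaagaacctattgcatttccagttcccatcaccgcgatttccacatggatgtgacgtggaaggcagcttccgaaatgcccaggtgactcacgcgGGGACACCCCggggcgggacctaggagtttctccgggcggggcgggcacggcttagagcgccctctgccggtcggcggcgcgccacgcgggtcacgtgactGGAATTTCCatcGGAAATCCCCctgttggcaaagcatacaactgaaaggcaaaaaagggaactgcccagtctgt
In Nfkbia the matches began 178 and 29 bases before the start, and in Tnfaip3 125, 24 and 12 bases before it. Il6 had 1 κB match that began 44 bases before its start, Icam1 had 1 match to GGANNTTCC at 153 bases before, and the first of the 3 annotated starts of Nfkb2 had matches from 39 bases and from 11 bases before it.

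No match to either form lay in the windows of C3, Saa3 or Lcn2. These 3 promoters are printed because the genes moved together in the data below, with the letters TTNNGNAA, which C/EBP factors are known to bind, in capitals. They come from chr17:57228087-57228386, chr7:46715627-46715926 and chr2:32387690-32387989, again on the minus strand.
C3: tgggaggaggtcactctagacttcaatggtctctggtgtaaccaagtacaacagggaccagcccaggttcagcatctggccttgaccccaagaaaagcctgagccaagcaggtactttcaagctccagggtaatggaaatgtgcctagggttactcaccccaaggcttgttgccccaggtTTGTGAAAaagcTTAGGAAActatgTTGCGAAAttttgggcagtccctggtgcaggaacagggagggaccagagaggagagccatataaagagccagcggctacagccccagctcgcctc
Saa3: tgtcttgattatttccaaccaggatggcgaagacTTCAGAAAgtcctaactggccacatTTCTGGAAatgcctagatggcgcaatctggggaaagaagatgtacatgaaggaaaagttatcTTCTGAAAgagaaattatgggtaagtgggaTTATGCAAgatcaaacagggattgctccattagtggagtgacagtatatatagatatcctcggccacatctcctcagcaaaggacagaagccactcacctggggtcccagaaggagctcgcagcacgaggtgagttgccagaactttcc
Lcn2: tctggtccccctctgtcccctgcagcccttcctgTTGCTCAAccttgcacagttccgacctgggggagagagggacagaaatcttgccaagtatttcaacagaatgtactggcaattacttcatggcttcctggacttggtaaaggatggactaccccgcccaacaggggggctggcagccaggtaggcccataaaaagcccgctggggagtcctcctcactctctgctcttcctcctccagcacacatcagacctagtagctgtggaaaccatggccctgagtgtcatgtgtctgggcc
C3 held 3 such matches, Saa3 4 and Lcn2 1. These letters do not set the 3 genes apart. Promoters of Tnfaip3, Il6, Icam1 and Nfkb2 held matches too, and that of Nfkbia held 0. Of all promoters 40.7% held at least 1, a share that does not measure the number of matches in a promoter. A match describes the letters only, and a window without one says nothing about the factor.

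Levels were compared between genes per kilobase of merged exons (GENCODE vM21). In log-phase NT cultures C3 stood highest with 4136 normalized counts per kb, followed by Nfkbia with 2425, Saa3 with 1962 and Nfkb2 with 1350. Relb (505), Tnfaip3 (400), Nfkb1 (314) and Lcn2 (245) were lower, and Il6 had 2.19 per kb. Under stress without morpholino the order was led by Nfkb2 with 1070 and Nfkbia with 933 per kb, and C3 had dropped to the sixth place with 125 per kb.

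**Figure D1:**
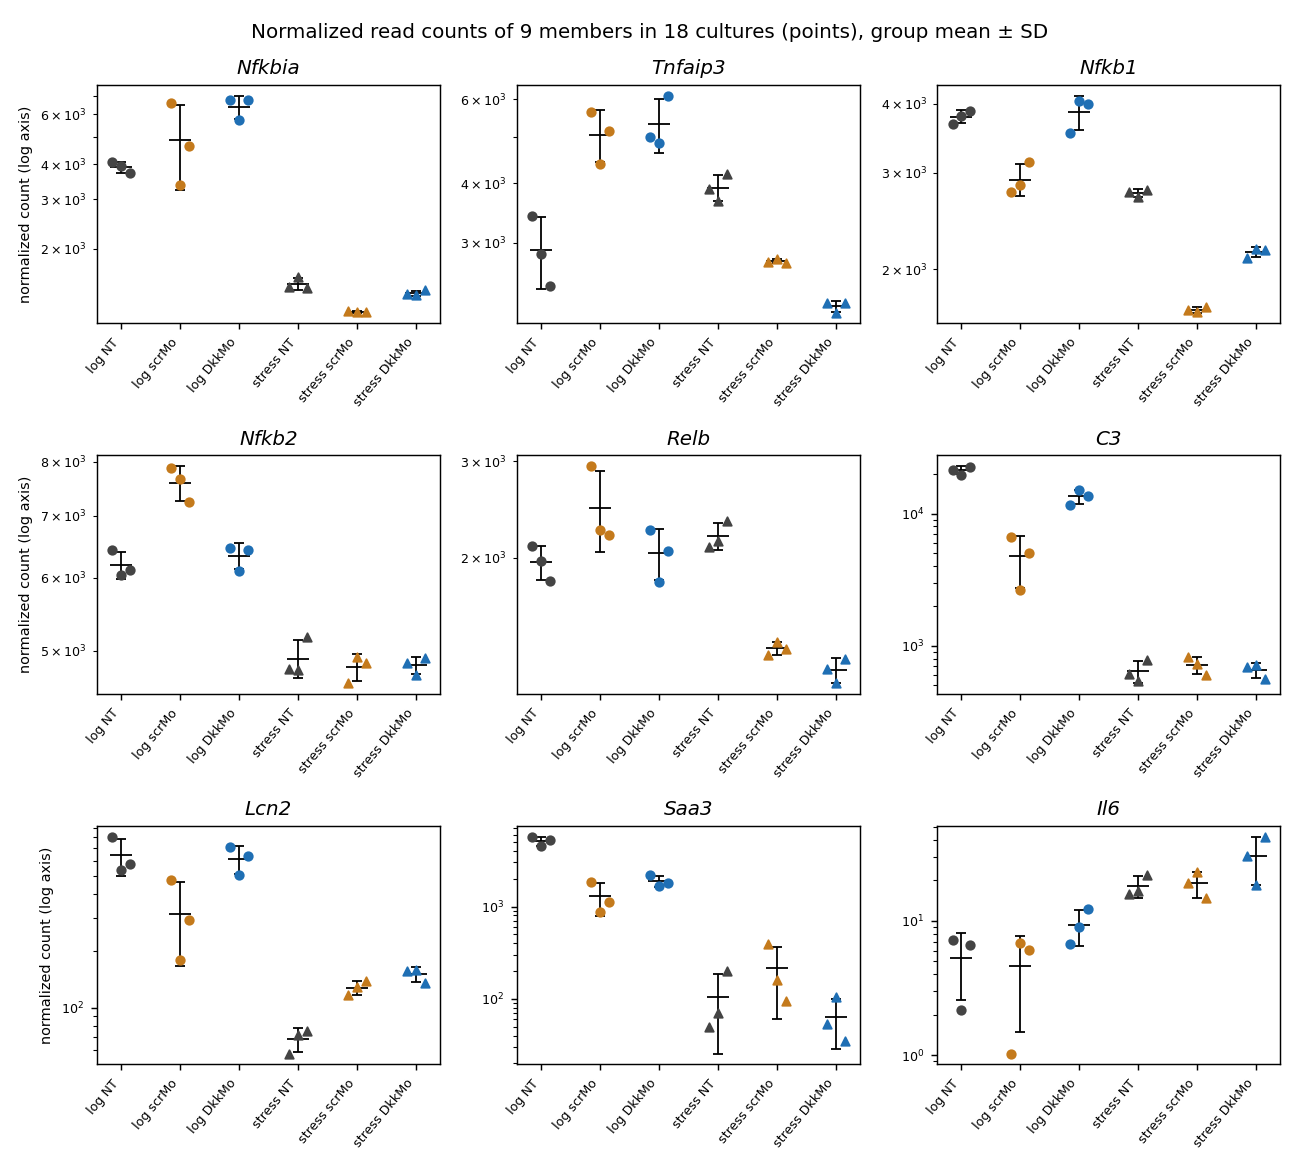
Normalized read counts (log axis) of the 9 genes in each of the 18 cultures, with circles for log phase, triangles for nutritional stress, and bars for the group mean ± SD (n = 3). C3, Saa3, Lcn2, Nfkbia and Nfkb2 are lower in all 9 stressed cultures than in any log-phase culture, and Il6 is higher.

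The first comparison asked how the genes stood under nutritional stress against log phase. Differences are log2 fold changes on the variance-stabilised scale, which understates changes of low genes. A gene is called differentially expressed (DE) at an adjusted p under 0.05 in limma over 16562 genes and a change over 1.5-fold. Without morpholino, C3, Saa3, Lcn2 and Nfkbia fell past both thresholds, and no member rose past both. Of the 9 members 4 were DE lower, where 9.9% of all genes were, and 0 were DE higher, where 8.22% of all genes were. With scrMo 8 of 9 were DE lower (6.28% of all genes) and 0 higher (4.38%). With DkkMo 7 of 9 were DE lower (10.2%) and 0 higher (6.24%). At an unadjusted p under 0.05 the higher members numbered 2 in NT (Il6 and Tnfaip3), 1 in scrMo and 1 in DkkMo cultures (Il6). Each of these passed the adjusted p too, but not the fold threshold. Limma voom on the recovered reads called Il6 higher in all 3 settings. Counts at the unadjusted p, here and below, have no share of all genes beside them. That background is large, as 10864 of 16562 genes in NT, 9744 in scrMo and 10861 in DkkMo cultures passed the adjusted p with no fold threshold, in either direction. The members' median change was -0.42 in NT, -0.73 in scrMo and -1.16 in DkkMo cultures, beside medians over all genes of -0.01 in each.

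C3, the central component of the complement cascade, lies at chr17:57203970-57228136 on the minus strand (GRCm38). In log phase it stood at 21455, 19689 and 22676 normalized counts in the NT cultures, at 6586, 2633 and 5007 with scrMo and at 11679, 15040 and 13640 with DkkMo. Under stress it stood at 609, 542 and 777 in NT, at 822, 723 and 603 with scrMo and at 690, 715 and 561 with DkkMo. The 3 log-phase groups did not overlap one another, and the 3 stressed groups all overlapped. The mean was 33.1-fold lower under stress in NT, 20.5-fold lower in DkkMo and 6.62-fold lower in scrMo cultures. On the stabilised log2 scale C3 fell by 4.57 ± 0.20 (SE, adjusted p = 3.74e-13) in NT. On that scale this was the largest fall of the 16562 genes in the comparison. The changes of C3 in DkkMo and scrMo cultures were -3.89 and -2.27.

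Saa3 encodes a serum amyloid A protein made largely outside the liver (chr7:46711998-46715700, minus strand), and it belongs to a family of similar genes among which reads can be shared. Its log-phase values were 5619, 4487 and 5235 normalized counts in NT, 1843, 878 and 1130 with scrMo and 2193, 1682 and 1785 with DkkMo. Its stress values were 50.1, 69.9 and 198 in NT, 388, 159 and 95.8 with scrMo and 53.1, 104 and 35.1 with DkkMo. Every stressed culture was below every log-phase culture, and the stressed groups spread widely within themselves. Saa3 fell by 4.06 ± 0.23 (SE, adjusted p = 1.67e-11) in NT, and it fell too in DkkMo (-2.96) and scrMo cultures (-1.79). Its mean was 48.2-fold lower under stress in NT, 29.5-fold lower in DkkMo and 5.99-fold lower in scrMo cultures. By group means its fall was thus larger than that of C3 in NT and DkkMo cultures and smaller with scrMo.

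Lcn2, a secreted protein that binds iron-carrying siderophores, lies at chr2:32384633-32388252 on the minus strand. It stood at 806, 537 and 582 normalized counts in log-phase NT, at 476, 179 and 292 with scrMo and at 709, 504 and 636 with DkkMo. Under stress it stood at 57.1, 72.0 and 75.4 in NT, at 117, 128 and 139 with scrMo and at 156, 159 and 135 with DkkMo. Unlike in log phase, the lowest stressed group was NT, which did not overlap with either morpholino group. Lcn2 fell by 1.66 ± 0.14 (SE, adjusted p = 4.47e-09) in NT, to a mean 9.42-fold lower. It fell in DkkMo cultures (-1.18) and in scrMo cultures (-0.62), where it was not past the 1.5-fold threshold without the scrMo library numbered 1 (-0.41) or with libraries centred on their medians (-0.55).

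Nfkbia encodes IκBα, an inhibitor that NF-κB itself induces (chr12:55489410-55492647, minus strand). Log-phase values were 4072, 3925 and 3716 normalized counts in NT, 6585, 3360 and 4644 with scrMo and 6742, 5712 and 6735 with DkkMo. Stress values were 1461, 1589 and 1456 in NT, 1206, 1195 and 1192 with scrMo and 1386, 1373 and 1428 with DkkMo. All 9 stressed cultures were below all 9 log-phase cultures. Nfkbia fell by 1.23 ± 0.13 (SE, adjusted p = 1.33e-07) in NT, and it fell in scrMo (-1.75) and DkkMo cultures (-1.99).

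Tnfaip3, whose product A20 restrains NF-κB signalling by editing ubiquitin chains (chr10:19000910-19015657, minus strand), moved differently. In log phase it stood at 3418, 2832 and 2432 normalized counts in NT, at 5637, 4381 and 5136 with scrMo and at 5003, 4845 and 6101 with DkkMo. Under stress it stood at 3892, 3672 and 4175 in NT, at 2734, 2776 and 2719 with scrMo and at 2237, 2138 and 2244 with DkkMo. The untreated cultures were thus the lowest group in log phase and the highest under stress. Between the conditions Tnfaip3 fell by 0.81 ± 0.10 in scrMo (SE, adjusted p = 1.01e-06) and by 1.16 ± 0.10 in DkkMo cultures (adjusted p = 4.88e-09). In NT cultures its change was 0.41 ± 0.10 (adjusted p = 0.00116), below the 1.5-fold threshold.

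No subunit gene moved as far as C3 or Saa3 in any of the 3 settings. On the stabilised scale, which understates changes of low genes, their falls with scrMo lay close to that of Lcn2. By group means Lcn2 fell further there, 2.47-fold against 1.73-fold for Nfkb1, 1.58-fold for Nfkb2 and 1.80-fold for Relb. Nfkb1 (p105, processed to p50; chr3:135584655-135691547, minus strand) stood at 3680, 3809 and 3884 normalized counts in log-phase NT, at 2763, 2847 and 3132 with scrMo and at 3545, 4046 and 3996 with DkkMo. Under stress it stood at 2771, 2705 and 2794 in NT, at 1688, 1670 and 1708 with scrMo and at 2099, 2181 and 2172 with DkkMo. It fell by 0.70 ± 0.05 in scrMo and by 0.77 ± 0.05 in DkkMo cultures, and its change in NT was -0.42 (adjusted p = 6.58e-07). Relb (chr7:19606217-19629438, minus strand), the partner of p52 in the non-canonical pathway, ranged from 1810 to 2937 normalized counts over the 9 log-phase cultures. Under stress it stood at 2093, 2147 and 2337 in NT, at 1332, 1408 and 1368 with scrMo and at 1253, 1183 and 1312 with DkkMo. Only the untreated stressed cultures overlapped with log phase. Relb fell by 0.73 ± 0.08 in scrMo and by 0.60 ± 0.08 in DkkMo cultures, and the latter call was lost without the log-phase DkkMo library numbered 1 (-0.54), without the stress DkkMo library numbered 2 (-0.57) and with libraries centred on their medians (-0.44). Nfkb2 (p100, processed to p52; chr19:46304320-46312385, plus strand) ranged from 6035 to 7869 normalized counts in log phase and from 4615 to 5169 under stress. It fell by 0.63 ± 0.05 in scrMo cultures, and that call was lost with libraries centred on their medians (-0.57).

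Il6 (chr5:30013114-30019981, plus strand), the cytokine that drives the hepatic acute phase response, was near the detection limit. It had 1 to 12 reads in each log-phase library and 15 to 36 in each stressed one. The means were 5.31 ± 2.75 normalized counts (SD, n = 3) in log-phase NT and 18.1 ± 3.31 in stress NT, 4.62 ± 3.14 and 19.0 ± 4.20 with scrMo, and 9.32 ± 2.81 and 30.4 ± 11.8 with DkkMo. The stressed and log-phase cultures did not overlap in any of the 3 settings. The changes of 0.24, 0.27 and 0.28 on the variance-stabilised scale had adjusted p of 0.00289, 0.00114 and 0.000682 and were under the 1.5-fold threshold. With voom on the recovered reads they were 1.897, 2.21 and 1.59, past both thresholds, with adjusted p of 0.00229, 0.00184 and 0.00349.

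**Figure D2:**
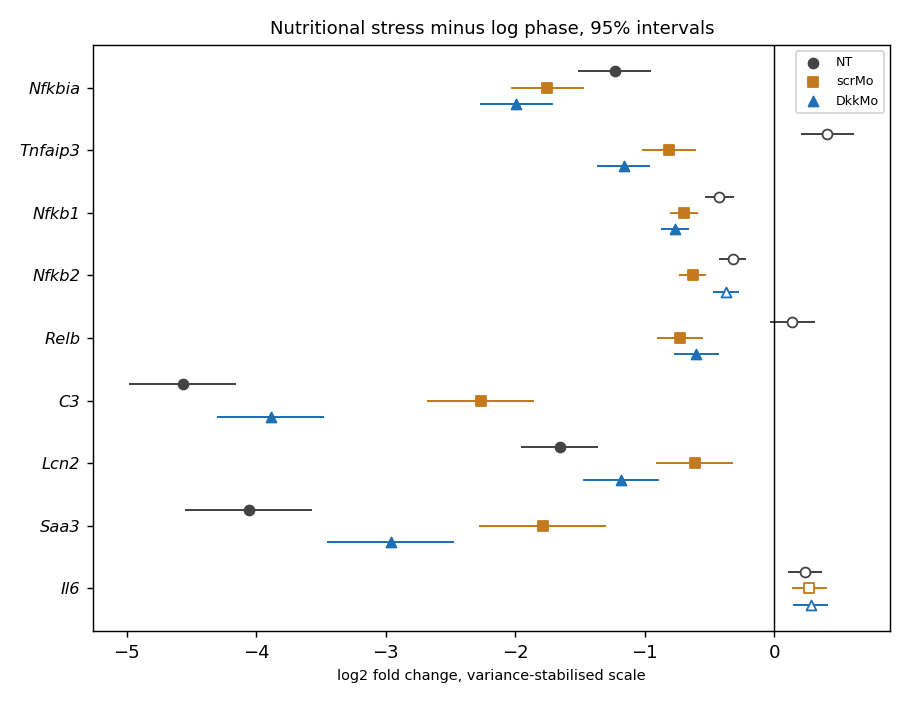
Change of each gene under nutritional stress against log phase (log2 fold change on the variance-stabilised scale, with 95% intervals) in NT, scrMo and DkkMo cultures, where filled symbols are DE and open symbols are not. C3 has the lowest value in each of the 3 settings, and Tnfaip3 and Relb lie to the right of 0 in NT cultures but to the left in both morpholino groups.

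The median library value was 0.16 lower under stress than in log phase in NT and in DkkMo cultures and 0.07 lower in scrMo cultures. Centring each library on its median turned the balance of all DE genes in NT from 1361 higher and 1639 lower to 2244 higher and 1120 lower, in DkkMo from 1034 and 1692 to 1908 and 1093, and in scrMo from 726 and 1040 to 947 and 845. On the unstabilised scale of voom all DE genes in NT numbered 2834 higher and 3484 lower, with the same 4 members lower and Il6 higher. The falls of C3, Saa3, Lcn2 and Nfkbia kept their direction under median centring, with C3 at or below -4.41 in NT cultures over all alternatives tried.

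The second comparison asked what the control morpholino did, scrMo against NT. In log phase C3, Saa3 and Lcn2 fell and Tnfaip3 rose. Of the 9 members 3 were DE lower, where 1.85% of all genes were, and 1 was DE higher, where 0.592% were. C3 fell by 2.18 ± 0.20 (SE, adjusted p = 1.91e-07), the second largest fall of all genes tested, and its mean was 4.49-fold lower. Saa3 fell by 1.83 ± 0.23 (adjusted p = 1.26e-05), the fifth largest fall, with a mean 3.98-fold lower. Lcn2 fell by 0.70 ± 0.14 (adjusted p = 0.00109) to a mean 2.03-fold lower, and the fold threshold was missed without log-phase NT replicate 1 (-0.58) or log-phase scrMo replicate 2 (-0.51). Tnfaip3 rose by 0.75 ± 0.10 (adjusted p = 1.69e-05).

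Among the subunits in log phase, Nfkb1 changed by -0.35, Nfkb2 by 0.28 and Relb by 0.28 with scrMo, each past the adjusted p but not the fold threshold. Nfkb1 was lower in all 3 scrMo cultures than in any NT culture, and Nfkb2 and Relb were higher in all 3. Relb was 0.16 without log-phase scrMo replicate 1, and it missed the adjusted p there (0.101), without log-phase NT replicate 3 (0.096) and in a fit of these 2 groups alone (0.0837). Nfkbia overlapped between the groups (0.25 ± 0.13, adjusted p = 0.184). Its highest scrMo value, 6585, came from the library numbered 1, which stood apart from its group, and without that library the change was 0.02. Without scrMo replicate 2 it was 0.47 and past the adjusted p (0.00194).

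Under stress C3, Saa3 and Lcn2 gave no DE call between scrMo and NT, and the DE falls were in Nfkb1 and Relb. Of the 9 members 2 were DE lower (2.54% of all genes) and 0 higher (1.9%). Lcn2 alone was higher at an unadjusted p under 0.05, and voom called 0. Nfkb1 fell by 0.63 ± 0.05 (adjusted p = 2.25e-08) and Relb by 0.59 ± 0.08 (adjusted p = 1.64e-05). Relb lay at the fold threshold and missed it without stress NT replicate 3 (-0.54), stress scrMo replicate 1 (-0.57) or stress scrMo replicate 3 (-0.58). Tnfaip3 changed by -0.47 (adjusted p = 0.000713), the opposite sign to log phase. Lcn2 had a mean 1.88 times that of NT, a difference of 0.34 ± 0.14 (adjusted p = 0.0578) that passed both thresholds on log2 of the normalized count plus 1 (0.90, adjusted p = 0.00451). Saa3 differed by 0.44 (adjusted p = 0.133) and hung on single cultures. It was DE higher without stress NT replicate 3 (0.67, adjusted p = 0.034) or stress scrMo replicate 3 (0.66, adjusted p = 0.0391), and it was 0.29 without stress NT replicate 1 and 0.15 without stress scrMo replicate 1. The stress scrMo libraries are those with the high mitochondrial share, and its part in these values was not tested.

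The difference between the stress and log-phase effects of scrMo was tested itself. In this interaction 3 members were DE higher (5.55% of all genes), namely C3 with 2.30 ± 0.28, Saa3 with 2.27 ± 0.33 and Lcn2 with 1.04 ± 0.20. DE lower were 2 (5.37%), Tnfaip3 with -1.22 ± 0.14 and Relb with -0.87 ± 0.12. The adjusted p were 2.82e-06, 2.04e-05, 0.000325, 1.37e-06 and 1.1e-05 in the same order. Nfkbia (-0.52), Nfkb1 (-0.27) and Nfkb2 (-0.31) passed the adjusted p alone. Nfkbia also passed 1.5-fold with voom (-0.59), on both log2 scales (-0.59 each), with median centring (-0.61) and without log-phase scrMo replicate 2 (-0.75), whereas without log-phase scrMo replicate 1 it was -0.29 (adjusted p = 0.0562).

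DkkMo against NT shares the NT cultures with the comparison above, so the values are given side by side and not as separate support. In log phase Nfkbia rose by 0.67 ± 0.13 (adjusted p = 0.00292) and Tnfaip3 by 0.82 ± 0.10 (adjusted p = 2.93e-05), and these 2 DE higher members stand beside 0.513% of all genes. DE lower were 2, beside 0.314% of all genes. Saa3 fell by 1.32 ± 0.23 (adjusted p = 0.00112), the largest fall of all genes in this comparison, and C3 fell by 0.65 ± 0.20 (adjusted p = 0.0407). For Saa3 the adjusted p was 0.0629 on log2 of the normalized count plus 1. The C3 call was lost with voom (adjusted p = 0.059), on both log2 scales, and when 1 culture was left out in 5 of 6 cases, with changes between -0.71 and -0.56. Lcn2 in DkkMo cultures overlapped with NT, where scrMo cultures were below it.

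Under stress DkkMo cultures had 2 members DE lower than NT (1.54% of all genes) and 0 higher (1.12%), with 2 higher at an unadjusted p under 0.05 (Il6 and Lcn2) and 1 by voom (Lcn2). Tnfaip3 fell by 0.75 ± 0.10 (adjusted p = 9.33e-06) and Relb by 0.70 ± 0.08 (adjusted p = 3.89e-06). Lcn2 changed by 0.44 ± 0.14 (adjusted p = 0.0183), with a mean 2.201 times that of NT, and it passed the fold threshold on both log2 scales (1.13 and 1.04) and with voom (1.15). It missed the adjusted p without stress NT replicate 1 (0.0632) or stress DkkMo replicate 2 (0.0563). Nfkb1 changed by -0.32 (adjusted p = 7.99e-05). C3 had means of 655 ± 82.6 normalized counts with DkkMo and 643 ± 121 in NT (SD, n = 3), and the 95% interval of the log2 change ran from -0.39 to 0.44. For Nfkb2 the interval ran from -0.12 to 0.08.

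**Figure D3:**
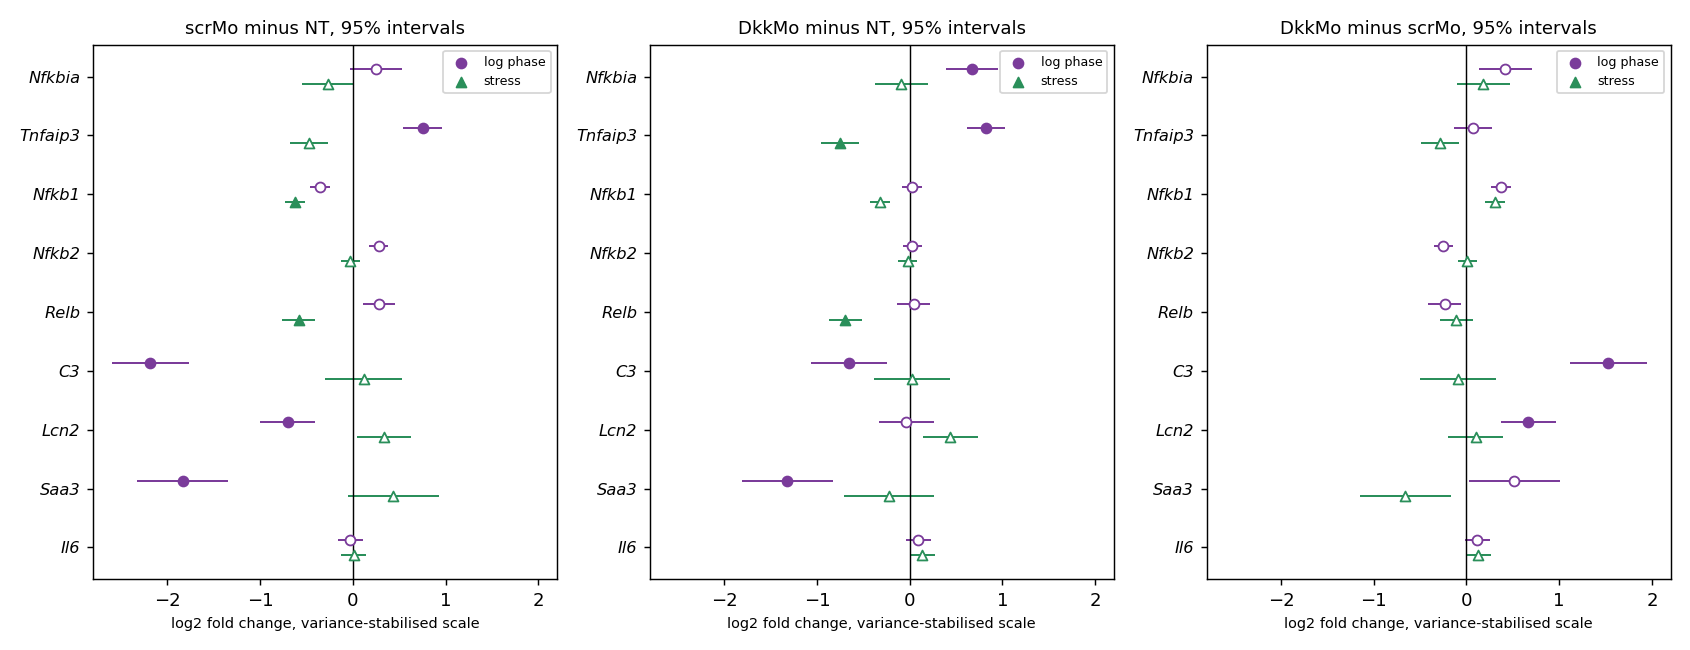
Changes of the 9 genes between the morpholino groups (log2 fold change on the variance-stabilised scale, with 95% intervals) in log phase (circles) and under stress (triangles), where filled symbols are DE. In log phase C3 and Saa3 lie left of 0 with either morpholino, further with scrMo, and in the last panel C3 and Lcn2 are DE higher with DkkMo than with scrMo.

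DkkMo against scrMo is the comparison in which both groups received a morpholino. It gave 2 members DE higher in log phase (1.66% of all genes) and 0 lower (0.308%). At an unadjusted p under 0.05 there were 2 lower (Nfkb2 and Relb), and voom called 0 lower. C3 was higher in all 3 DkkMo cultures, by 1.53 ± 0.20 (SE, adjusted p = 2.37e-05) and with a mean 2.84-fold higher. Lcn2 was higher by 0.67 ± 0.14 (adjusted p = 0.00188), with a mean 1.95-fold higher. Lcn2 lost its call in a fit of these 2 groups alone (adjusted p = 0.055) and without log-phase scrMo replicate 2 (0.47). In both genes the DkkMo values lay between scrMo and NT or level with NT. Saa3 had a mean 1.47-fold higher and overlapped between the groups (0.51 ± 0.23, adjusted p = 0.123). It was DE without log-phase scrMo replicate 1 (0.76) and was 0.32 without log-phase scrMo replicate 2.

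For the feedback genes in log phase, Nfkbia differed by 0.42 and Nfkb1 by 0.37, and Nfkb2 by -0.25 and Relb by -0.24, all past the adjusted p and none past 1.5-fold. For Nfkbia this rested on single scrMo libraries. It was 0.20 (adjusted p = 0.192) without log-phase scrMo replicate 2 and DE with 0.65 without replicate 1, and its adjusted p was 0.233 in a fit of these 2 groups alone. Relb was -0.12 (adjusted p = 0.245) without log-phase scrMo replicate 1 and had an adjusted p of 0.248 without DkkMo replicate 2, 0.0501 with voom and 0.262 in the fit of 2 groups. Nfkb2 had 0.0832 in that fit. Tnfaip3 differed by 0.07, with a 95% interval from -0.14 to 0.28. Without the 2 log-phase morpholino libraries numbered 1, a setting chosen after seeing the data, 4 members were DE in place of 2, with Nfkbia (0.61) and Saa3 (0.66) added, and C3 and Lcn2 kept. Of all genes 421 were then DE higher and 66 lower, against 275 and 51 with all cultures.

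Under stress limma called 0 members between DkkMo and scrMo in either direction, where 0.513% of all genes were DE higher and 0.489% lower. At an unadjusted p under 0.05, 1 was higher (Nfkb1) and 2 lower (Tnfaip3 and Saa3), and voom called 0. Nfkb1 (0.30) and Tnfaip3 (-0.28) passed the adjusted p, which Tnfaip3 missed whenever 1 culture was left out (0.0913 to 0.141), with median centring (0.0857) and with the replicate block (0.059). Saa3 differed by -0.66 ± 0.23 (adjusted p = 0.0516) with overlapping groups, and it passed the threshold on both log2 scales (-1.63 and -1.49) and in a fit of these 2 groups alone (adjusted p = 0.00325). Without stress scrMo replicate 1 it was -0.38 (adjusted p = 0.279), and without stress DkkMo replicate 3 it was -0.56 (adjusted p = 0.176). With voom the adjusted p was 0.0944. The interval for C3 ran from -0.50 to 0.32. The difference between the 2 conditions was DE lower for 2 members (2.83% of all genes) and DE higher for 0 (0.869%), with 1 at an unadjusted p under 0.05 (Nfkb2) and 0 by voom. These were C3 with -1.62 ± 0.28 (adjusted p = 0.000435) and Saa3 with -1.18 ± 0.33 (adjusted p = 0.0154). Lcn2 with -0.57 (adjusted p = 0.0485) and Nfkb2 with 0.26 passed the adjusted p only. Lcn2 was DE without log-phase scrMo replicate 1 (-0.78) or log-phase DkkMo replicate 2 (-0.66), was -0.37 without log-phase scrMo replicate 2, and missed the adjusted p with voom (0.161).

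The rest of the pathway was read from 7 lists that leave the members out. Among NF-κB subunits, IκB proteins and kinases all 16 genes were tested, and in NT cultures 2 were DE higher and 2 lower under stress, with a median of 0.04. With 8.22% of all genes DE higher and 9.9% lower in that comparison, so few calls are near the background. The same shares stand behind the NT counts of the other lists. Ikbkg, the regulatory subunit of the IκB kinase complex, rose by 0.98 and Chuk, a catalytic one, by 0.70. Nfkbiz, an inducible nuclear IκB protein, fell by 1.40, and Nfkbie, another inhibitor, fell by 0.87. In log phase limma and voom each called 0 of the 16 in the 3 morpholino comparisons, where between 5 and 7 of them had an unadjusted p under 0.05. Of all 16562 genes, 3890 passed even the adjusted p with no fold threshold for DkkMo against scrMo, 4365 for scrMo against NT and 1625 for DkkMo against NT. Among adaptors, ubiquitin regulators and feedback genes, 25 of 28 were tested, of which 1 was DE higher and 4 lower in NT, again near the shares over all genes. Birc3, a ubiquitin ligase of the TNF receptor complex, fell by 1.01 and Zc3h12a, an RNase that cuts cytokine transcripts, by 0.77, while the adaptor Traf6 rose by 0.89.

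Ligands and receptors that activate the pathway had a row for 15 of 26 genes. Under stress 1 rose and 6 fell in NT, with Tlr2 (-2.06) and the decoy receptor Tnfrsf11b (-1.62) as the largest falls and Tnfrsf12a (0.72) as the rise. With scrMo in log phase 4 were DE lower (1.85% of all genes) and 0 higher (0.592%), with 10 lower and 1 higher at an unadjusted p under 0.05, 8 and 0 by voom, and a median of -0.31. The receptor Il1rl1 fell by 0.78 and Il1rap, the shared subunit of IL-1 family receptors, by 0.71. Under stress Il1rl1 fell against NT with scrMo (-1.95) and with DkkMo (-1.41), while Tlr4 (0.66) and Tlr2 (0.62) rose with scrMo. In all 2 of the list were DE higher and 4 lower with scrMo against NT under stress, where 1.9% and 2.54% of all genes were.

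Of 30 other inducible targets 22 were tested, and 12 fell and 1 rose under stress in NT cultures, 14 fell and 0 rose with scrMo (3 higher at an unadjusted p under 0.05 and 1 by voom), and 14 fell and 1 rose with DkkMo. Of all genes 6.28% were DE lower and 4.38% higher with scrMo, and 10.2% lower and 6.24% higher with DkkMo. The medians of the list were -0.67, -0.66 and -0.84, where the median over all genes was -0.01 each time. Vcam1, an adhesion molecule, fell in NT (-2.03), scrMo (-1.27) and DkkMo cultures (-1.84), and Csf1, the macrophage growth factor, fell by 1.83 in NT. Cflar, an inhibitor of caspase-8, rose by 1.07 in NT and by 1.11 in DkkMo cultures. With scrMo in log phase 3 rose (0.592% of all genes) and 5 fell (1.85%), among them Gadd45b (1.24) and the prostaglandin synthase Ptgs2 (0.87) as rises and the metalloproteinases Mmp13 (-1.57) and Mmp9 (-0.89) as falls. DkkMo against scrMo in log phase had 4 rises and 0 falls (5 lower at an unadjusted p under 0.05 and 1 by voom), led by Mmp13 (1.07) and the urokinase gene Plau (0.86). Of all genes 1.66% were DE higher and 0.308% lower there.

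The other acute phase and complement genes numbered 32 tested of 45. Under stress 9 fell and 1 rose in NT, 6 fell and 0 rose with scrMo (5 higher at an unadjusted p under 0.05 and 3 by voom), and 9 fell and 1 rose with DkkMo. Of all genes 6.28% were DE lower and 4.38% higher with scrMo, and 10.2% lower and 6.24% higher with DkkMo. C1s1, a protease of the first complement component that has a close copy in mouse, fell by 3.06 in NT. In log phase 4 were DE lower with scrMo (1.85% of all genes) and 2 higher (0.592%). Cp, the copper carrier ceruloplasmin, fell (-1.79), while C3ar1, the receptor of a C3 fragment, rose by 0.76. Under stress 2 were DE higher with scrMo than in NT, C1s1 (1.14) and Cp (0.61), and 0 lower (4 at an unadjusted p under 0.05 and 0 by voom), where 1.9% of all genes were DE higher and 2.54% lower. DkkMo against scrMo in log phase showed 5 rises (1.66% of all genes) and 0 falls (0.308%), with 2 lower at an unadjusted p under 0.05 and 1 by voom. Among the rises was Cp with 1.30. The list's median in that comparison was 0.01.

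In the IL-6 family and STAT3 feedback list, with 18 of 22 tested, 1 gene rose and 2 fell under stress in NT, counts near the shares over all genes. The kinase gene Pim1 rose by 2.15, and the transcription factor gene Cebpd fell (-1.26). Pim1 also rose by 1.21 with scrMo and by 0.59 with DkkMo in log phase. Among 14 of 18 adhesion molecules of the ICAM group and their partners, 4 rose and 4 fell under stress in NT, with Alcam (1.21) and Pvr (1.0999) up and Vcam1 (-2.03) and Ncam1 (-1.24) down.

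**Figure D4:**
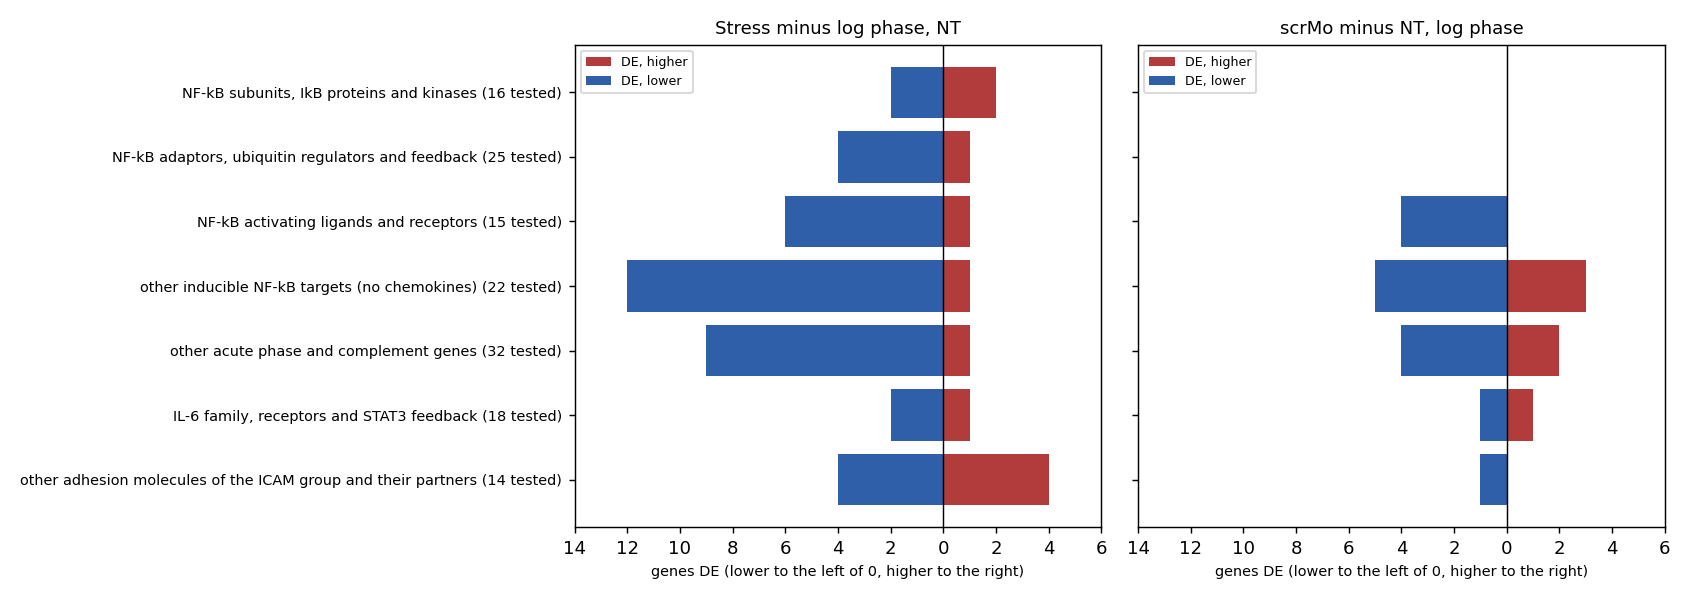
Number of DE genes in each of the 7 pathway lists, higher to the right and lower to the left of 0, for stress against log phase in NT cultures and for scrMo against NT in log phase. The other inducible targets have 12 genes lower and 1 higher under stress, and the subunit and kinase list has 2 of each.

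Over the 18 cultures the deposited values of C3 and Saa3 had a Pearson r of 0.97, C3 and Lcn2 of 0.95 and Saa3 and Lcn2 of 0.92. Nfkbia had r = 0.89 with C3 and 0.72 with Tnfaip3. Tnfaip3 and Relb had r = 0.82, against 0.42 and 0.49 with C3. Il6 was negative against all 8 other members, from -0.54 to -0.80. These values describe cultures that share growth condition and treatment within a group, and carry no p.

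The genes outside the group whose values were most alike over the 18 cultures were named for each member. For C3 these were Lgals3bp, Tor3a and Xaf1 (r = 0.99 each), for Saa3 Ifi27l2a, Irf7 and Ifitm5 (r = 0.98 each), and for Lcn2 Tmem176a, Bgn and Fam20a (r = 0.98 each). For Nfkbia they were Kdelr2, Eno1 and Pxdc1 (r = 0.99 each), and for Tnfaip3 Enc1 (0.96), Fhl2 (0.93) and Sec31a (0.92). Nfkb1 was most like Emilin2 (0.98), Nfkb2 most like Mtpap (0.98), Relb most like Srm (0.97) and Il6 most like Gm27223 (0.93).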

How the data were processed

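MOSJ-Dkk1 cultures were sequenced in 18 libraries (6 groups of 3). The 16 tumour samples of the series were not used here. The authors aligned reads to GRCm38 with HISAT2 2.1.0 and counted them with featureCounts (Subread 2.0.0) after SAMtools 1.9, and the deposited values are log2 values from the variance-stabilising transformation of DESeq2. Strandedness is not given in the sources used here. The lowest value, 7.2, stands for no reads. Inverting the transformation gave whole reads for 100% of values (tolerance 0.05 reads). Normalized counts are these reads divided by size factors with a geometric mean of 1. Of 16576 rows, 14 that spanned over 6 log2 units within a group were set aside, and 0 of the remaining 16562 genes failed the filter of reads in at least 3 cultures.

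The deposited log2 values were fitted with limma 3.58.1 (R 4.3.3), with 6 group means over all 18 cultures, a trended prior and Benjamini-Hochberg adjustment over 16562 genes in each of 11 comparisons. DE means adjusted p under 0.05 and over 1.5-fold. An exact two-sided permutation test of 3 against 3 cannot go below p = 0.1 and was not used for calls. The script was tested on simulated data. The members, the 7 lists and the tests were chosen with earlier results of these data known. From each list at most 2 DE rises and 2 DE falls per comparison without overlap of the groups were open to naming, by size, and the 3 genes most like each member by Pearson r. Some genes open to naming are not reported here. Cell type markers comprised leukocyte and macrophage, endothelial, hepatocyte, osteoblast, chondrocyte and fibroblast lists. Alternatives were a filter at the median, no filter, log2 of the normalized count plus 1 or 10, library median centring, a fit of the compared groups only, voom on recovered reads, a replicate block, other fold thresholds and leaving out each culture. Replicate numbers were not shown to pair the cultures.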

Additional observations from a re-analysis of the deposited data

Results flagged for a closer look

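For 12 results the effect of a morpholino differed between nutritional stress and log phase by a test of the difference itself, the limma interaction with adjusted p under 0.05. Such a difference was common, as 7612 of all 16562 genes passed this test for scrMo against NT and 3673 for DkkMo against scrMo. For scrMo against NT, the stress effect minus the log-phase effect was 2.30 for C3, 2.27 for Saa3 and 1.04 for Lcn2, each DE lower with scrMo in log phase and not DE under stress. It was -1.22 for Tnfaip3, -0.87 for Relb, -0.52 for Nfkbia, -0.31 for Nfkb2 and -0.27 for Nfkb1. For DkkMo against scrMo it was -1.62 for C3, -1.18 for Saa3, -0.57 for Lcn2 and 0.26 for Nfkb2. These tests share the scrMo cultures of both conditions, and the stress scrMo libraries had the mitochondrial shares of 5.30% to 5.80%, whose part was not tested. Groups of 3 were not tested for a single far sample.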

How the results depend on the processing

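The number of DE members (in either direction) moved with the fold threshold. With no fold threshold it was 6 in place of 2 for DkkMo against scrMo in log phase, 2 in place of 0 under stress, 7 in place of 4 for scrMo against NT in log phase, 4 in place of 2 for DkkMo against NT under stress, 8 in place of 4 for stress against log phase in NT, and 4 in place of 2 and 8 in place of 5 for the DkkMo-scrMo and scrMo-NT interactions. With no fold threshold many genes of the whole table passed too. In the same order they numbered 3890, 3464, 4365, 6907, 10864, 3673 and 7612 of 16562. Over 2-fold the number of DE members was 1, 2 and 1 in log phase for DkkMo-scrMo, scrMo-NT and DkkMo-NT, 0 and 0 under stress for scrMo-NT and DkkMo-NT, and 3 in place of 8 for stress against log phase with scrMo. These counts over 2-fold have no share of all genes beside them. For DkkMo against scrMo in log phase 1 member was left among genes above the median mean, where Lcn2 was not tested, and 1 in a fit of the groups compared only. DE higher and lower there were 153 and 46 of the 8281 genes above the median, and 253 and 51 of 16562 in the fit of these groups. Leaving out 1 culture gave 1 to 4 members, with 4 without log-phase scrMo replicate 1 and 1 without log-phase scrMo replicate 2. Without both log-phase morpholino libraries numbered 1 it was 4. The calls over all genes moved as well, from 275 higher and 51 lower in the main fit. They were 348 and 61 without scrMo replicate 1, 205 and 44 without scrMo replicate 2, and 421 and 66 without both libraries numbered 1. For the same pair under stress, 1 member (Saa3) was DE with either pseudocount, 1 in a fit of the groups compared only and 1 with the replicate block, and 0 to 1 when 1 culture was left out, with 1 without stress DkkMo replicate 2 or stress scrMo replicate 3. All genes DE higher and lower numbered 488 and 403 with a pseudocount of 1, and 485 and 364 with 10. They were 86 and 82 in the fit of the groups compared and 85 and 82 with the block. Without stress DkkMo replicate 2 they were 82 and 77, and without stress scrMo replicate 3 they were 74 and 78. For scrMo against NT under stress, leaving out 1 culture gave 1 to 2, with 1 without stress scrMo replicate 1. Without stress NT replicate 3 or stress scrMo replicate 3 it was 2 with other members, Relb losing its call (-0.54 and -0.58) and Saa3 gaining one (0.67 and 0.66). All genes DE higher and lower in this comparison numbered 340 and 466 without stress scrMo replicate 1, 320 and 433 without stress NT replicate 3, and 306 and 419 without stress scrMo replicate 3. DkkMo against NT in log phase gave 2 members with a pseudocount of 1, beside 291 higher and 232 lower of all genes. The cause was not tested.

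With voom the DE genes over the whole table rose to 890 higher and 246 lower for DkkMo against scrMo in log phase (275 and 51 on the stabilised scale), 520 and 398 under stress (85 and 81), 428 and 917 for scrMo against NT in log phase (98 and 307) and 1854 and 1092 under stress (314 and 420), 324 and 245 for DkkMo against NT in log phase (85 and 52) and 1635 and 670 under stress (186 and 255), and the values for stress against log phase were 2272 and 2214 with scrMo (726 and 1040) and 2677 and 3184 with DkkMo (1034 and 1692). The shares of all genes printed beside the members are those of the stabilised scale.

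Of the values of single members under all alternatives, 1185 kept direction and side of the threshold, 25 lost the call, 34 gained it and 1 changed sign. That was Saa3, DkkMo against NT under stress, from -0.22 to 0.0073 without stress NT replicate 3, in a range of -0.37 to 0.0073 over cultures left out. Differences of under 0.1 that missed the adjusted p are not counted here. The values kept include those that were DE in neither fit. They also include 82 from the setting with no filter, which had to equal the main fit because 0 genes failed the filter.

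The cultures share replicate numbers but are not shown to be paired. Same-numbered log-phase DkkMo and scrMo cultures deviated with r of 0.62, -0.05 and 0.57 for numbers 1, 2 and 3, and 2 of these 3 pairs were best with their own number. Differently numbered ones had r from -0.68 to 0.30, so a batch shared by number in log phase is not excluded. Same-numbered stress cultures had r from -0.06 to 0.01, and in none of 6 group pairs did all 3 cultures correlate best with their own number. Stress NT stayed out of the block fit because 2 of its titles carry the same number. The block changed 1 call, Saa3 in DkkMo against scrMo under stress (-0.66, adjusted p = 0.00807), and no other call of a member that it could test. Il6, with at most 36 reads in a library, is the member that depth limits most.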
